A study of Mus musculus with 4 samples.

Results

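The genes described here are 10 regulators of alternative splicing chosen by name for their link to cardiac reprogramming: the 3 polypyrimidine tract binding protein genes Ptbp1, Ptbp2 and Ptbp3, the muscle regulators Rbm20 and Rbm24, and Mbnl1, Celf1, Qk, Rbfox2 and Srsf1. They were taken by symbol from the 16383 genes of the count table, and all 10 were found. These regulators and the gene lists set beside them were chosen with earlier results of these data known. The cells were primary cardiac fibroblasts from wild-type mice 3 months of age. Both groups received Mef2c, Gata4 and Tbx5 (MGT), transcription factors that convert fibroblasts toward induced cardiomyocytes, so no library represents fibroblasts without these factors. The 2 libraries of the control group carried a non-targeting hairpin (shNT) and the 2 libraries of the knockdown group carried a hairpin against the nuclear receptor gene Nr4a3 (shNr4a3). RNA was collected on day 7. The labels name 1 hairpin per group and neither the promoter that drives the factors nor separate animals or cultures for the replicates, so the p-values measure only the spread between these libraries, which may be technical. The stated purpose of the study was to find the molecular basis on which loss of Nr4a3 enhances reprogramming.

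Alternative splicing selects which exons of a primary transcript are kept, and muscle cells keep exons in contractile and calcium-handling transcripts that fibroblasts skip. The balance is set by RNA-binding proteins. PTB proteins bind pyrimidine-rich stretches beside exons and mostly repress them, and PTBP1 has been described as a barrier to the conversion of fibroblasts to cardiomyocytes. RBM20 and RBM24 act in striated muscle, MBNL and CELF proteins set fetal and adult splicing patterns against each other, and QK, RBFOX2 and SRSF1 act in many tissues, heart included. The counts used here are sums over whole genes, so they give the level of each regulator's transcripts and say nothing of which exons were kept.

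PTBP1 and PTBP2 are joined by a known splicing switch. In cells with much PTBP1, a short exon of the Ptbp2 transcript is skipped, the reading frame shifts and the transcript is degraded, whereas neurons and some other cells with little PTBP1 include the exon and make PTBP2 protein. A homologous exon of 34 bases is annotated in all 3 genes, as exon 10 of the 14 exons of the coding transcript examined in each gene. Because the levels of these paralogues carry the main result below, the exon is shown here in capitals between the last 30 bases of the exon before it and the first 30 of the exon after it, read 5′ to 3′ from the GENCODE M21 transcripts (GRCm38, equal to mm10). The exon lies at chr10:79862014-79862047 on the plus strand in Ptbp1, at chr3:119724612-119724645 on the minus strand in Ptbp2 and at chr4:59485339-59485372 on the minus strand in Ptbp3.
Ptbp1: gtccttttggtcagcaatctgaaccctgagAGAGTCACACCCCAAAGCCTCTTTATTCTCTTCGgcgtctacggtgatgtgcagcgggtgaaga
Ptbp2: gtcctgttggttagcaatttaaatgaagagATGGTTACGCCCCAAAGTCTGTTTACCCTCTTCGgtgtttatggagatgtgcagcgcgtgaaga
Ptbp3: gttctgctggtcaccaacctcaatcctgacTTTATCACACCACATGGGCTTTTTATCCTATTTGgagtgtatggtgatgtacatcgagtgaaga

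The capitals of Ptbp1 and Ptbp2 share 26 of 34 positions, those of Ptbp1 and Ptbp3 share 22, and those of Ptbp2 and Ptbp3 share 21. A length of 34 bases is not a multiple of 3, so leaving the exon out changes the reading frame. Annotated transcripts that join the neighbouring exons without it number 2 in Ptbp1 and 2 in Ptbp2, and all 4 are annotated as targets of nonsense-mediated decay. No such transcript is annotated for Ptbp3. The 3 genes are distinct at the scale of a read: no stretch of 50 bases is shared between annotated transcripts of any 2 of them.

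The hairpin's target had 356 and 353 counts of Nr4a3 in the shNT libraries and 18 and 32 in the shNr4a3 libraries (edgeR log2 fold change -3.86, adjusted p = 2.65e-06). The libraries held 28220440 to 30976450 counts over the listed genes. Levels are given as CPM, counts scaled to a common library size after TMM normalisation. A single count was worth 0.0326 to 0.0350 CPM, and the floor of 3 counts was 0.0977 to 0.105 CPM. All 12 cardiac fibroblast markers in the table were above the expression filter, with Col1a1 at 1043 to 2075 CPM. Under shNr4a3, 7 of them were lower, 2 were higher and 3 did not pass (edgeR adjusted p under 0.05). Among the lower ones, mean Pdgfra went from 338 to 70.8 CPM and mean Tcf21 from 85.3 to 8.38 CPM. The skeletal muscle factors Myf5 and Myf6 were at 0 counts in every library, and the cardiac factor Nkx2-5 had 2 to 10 counts. Fewer cells of a type and less RNA per cell cannot be told apart in bulk RNA.

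Of the 10 regulators, all of which passed the filter on low counts, 3 were higher under shNr4a3 (Rbm24, Rbm20 and Ptbp2), 3 were lower (Ptbp3, Ptbp1 and Srsf1) and 4 did not pass the test (Mbnl1, Celf1, Qk and Rbfox2). A call is an edgeR quasi-likelihood adjusted p under 0.05, over the 10736 genes tested. Of all genes tested, 60.2% were called, 30.7% as higher and 29.4% as lower, so 6 calls in 10 genes is the background share and the count says nothing particular about splicing regulators. Calls with a log2 fold change beyond 1 made up 26.3% of all genes tested and 3 of the 10 regulators, all 3 of them upward. Among these is Rbm24, which passed the filter only through the shNr4a3 libraries. Between the hairpins, the libraries of 8 regulators did not overlap in CPM, against 81% of all genes tested. The median log2 fold change was 0.05 for the 10 regulators and 0.02 for all genes tested.

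**Figure D1:**
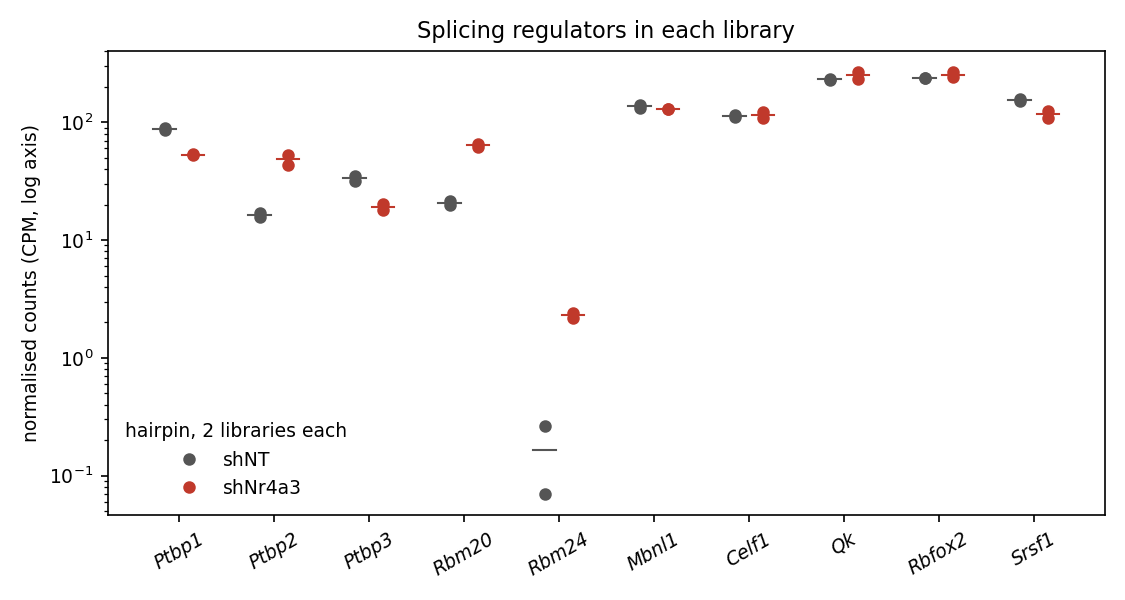
Normalised counts of the 10 regulators in each of the 4 libraries, on a log axis in CPM, with shNT in grey and shNr4a3 in red; points are libraries and short lines are group means. Ptbp1 and Ptbp3 lie lower and Ptbp2, Rbm20 and Rbm24 higher in both shNr4a3 libraries, while Mbnl1, Celf1, Qk and Rbfox2 stay close to the shNT libraries.

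Ptbp1 is the PTB protein of most dividing and non-neuronal cells. It had 85.3 and 88.7 CPM in the shNT libraries and 52.9 and 53.7 CPM in the shNr4a3 libraries. Both knockdown libraries were below both controls. The mean fell from 87.0 ± 2.43 to 53.3 ± 0.573 CPM (SD, n = 2 each), and the log2 fold change was -0.71 (95% interval -0.90 to -0.52, SE 0.0835, edgeR adjusted p = 8.01e-05). This left 0.613 times the control level. The gene spans chr10:79854427-79864771 on the plus strand. Its exons overlap those of 3 genes on the opposite strand, and of these Plppr3 was analysed here, with 509 and 539 counts in shNT and 360 and 290 in shNr4a3. Plppr3 was lower as well (edgeR log2 fold change -0.73, adjusted p = 0.00213). The overlaps cover 9.22% (Gm17134), 6.22% (E130317F20Rik) and 5.30% (Plppr3) of the exon bases of Ptbp1, which itself had 1597 to 2711 counts. In all, 18.3% of the 50-base words of Ptbp1 transcripts also occur on either strand in annotated transcripts of other genes, 4.75% in Gm4900. Of these genes, those other than Plppr3 were not analysed here. The part of these overlaps in the result was not tested.

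Ptbp2, the paralogue enriched in neurons and kept low in most other cells by PTBP1, moved the other way. Whether its rise is linked to the fall of Ptbp1 was not tested. Whole-gene counts do not show whether the short exon of Ptbp2 was kept. The shNT libraries had 15.6 and 16.8 CPM and the shNr4a3 libraries 43.6 and 53.2 CPM. The groups were far apart, although the 2 knockdown libraries differed more from each other than the controls did. The mean rose from 16.2 ± 0.848 to 48.4 ± 6.79 CPM (SD, n = 2 each), 2.98-fold, with a log2 fold change of 1.58 (95% interval 1.29 to 1.86, SE 0.125, edgeR adjusted p = 6.07e-06). The gene spans chr3:119718742-119784466 on the minus strand, with no annotated exon overlap with another gene and no 50-base word shared with one.

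Ptbp3, the third paralogue, described mainly in blood cells, fell with Ptbp1. It had 31.9 and 35.2 CPM in shNT and 18.1 and 20.2 CPM in shNr4a3, without overlap. Its log2 fold change was -0.81 (95% interval -1.07 to -0.55, SE 0.114, edgeR adjusted p = 2.39e-04), or 0.570 times the control level. The interval of Ptbp3 overlaps that of Ptbp1, and the difference between the falls of these paralogues was not tested. Ptbp3 lies at chr4:59471868-59549364 on the minus strand, where 2.77% of its exon bases overlap a pseudogene on the opposite strand.

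On a per-length scale, CPM per kilobase of the gene's merged exons, the makeup of the family differed between the hairpins. Ptbp1 made up 75.1% and 74.1% of the summed per-length level of the 3 genes in the shNT libraries and 60.9% and 57.1% in the shNr4a3 libraries. Ptbp2 went from 7.11% and 7.26% to 25.9% and 29.2%. The Ptbp3 share was 17.8% and 18.6% in shNT and 13.2% and 13.6% in shNr4a3. Per length, Ptbp1 stood 10.6 and 10.2 times above Ptbp2 in shNT and 2.35 and 1.95 times above it in shNr4a3. It therefore remained the most abundant of the 3 in every library, with Ptbp2 in place of Ptbp3 as the next most abundant under shNr4a3. The summed per-length level was 24.0 and 25.2 CPM per kilobase in shNT and 18.3 and 19.8 in shNr4a3, so the rise of Ptbp2 did not bring the sum to the control level. These shares and ratios depend on the length used. With the longest annotated coding transcript of each gene, a choice made after the data were seen, the mean Ptbp1 share was 74.9% in shNT and 52.0% in shNr4a3. On that scale the Ptbp2 share was 11.6% and 11.9% in the shNT libraries. In the shNr4a3 libraries it was 37.4% and 41.4%, beside 54.1% and 49.9% for Ptbp1, so Ptbp1 stood less far above Ptbp2. With 2 libraries a group the smallest two-sided p of an exact permutation test is 0.333, so no test of the shares is given.

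**Figure D2:**
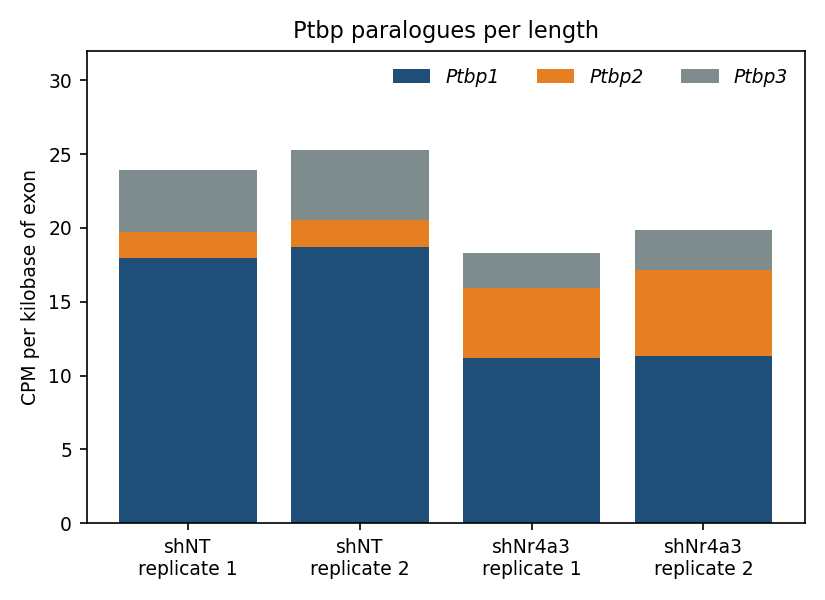
Level of Ptbp1, Ptbp2 and Ptbp3 per length in each library, as stacked bars in CPM per kilobase of exon that start at 0. The Ptbp2 segment grows from 7.11% and 7.26% of the bar in the shNT libraries to 25.9% and 29.2% in the shNr4a3 libraries, while the Ptbp1 segment and the whole bar become shorter.

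Rbm20 encodes a splicing repressor of striated muscle that removes exons of titin and of calcium-handling transcripts, and its mutation causes dilated cardiomyopathy. The shNT libraries had 21.4 and 19.8 CPM and the shNr4a3 libraries 62.0 and 65.3 CPM. The lowest library had 604 counts, so the level in the controls was well measured and not near the floor. The mean rose from 20.6 ± 1.13 to 63.7 ± 2.35 CPM (SD, n = 2 each), 3.10-fold, with a log2 fold change of 1.63 (95% interval 1.41 to 1.86, SE 0.0994, edgeR adjusted p = 1.28e-06). The gene lies at chr19:53677306-53867080 on the plus strand, with no annotated overlap.

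Rbm24, which promotes inclusion of muscle exons and is needed for sarcomere assembly, was near the limit of detection in the controls. It had 2 and 8 counts in shNT and 66 and 74 counts in shNr4a3, which correspond to 0.0700 and 0.262 CPM against 2.19 and 2.41 CPM. The ratio of the summed counts, 140 against 10, was 13.6 after scaling (exact 95% interval 7.17 to 29.0, for counting error only). This interval takes each count as an independent event. It is too narrow if both reads of a pair were counted, which was not tested. In edgeR the log2 fold change was 3.74 (95% interval 2.41 to 5.06, SE 0.586, adjusted p = 4.80e-04). The size rests on the few control counts: it was 3.10 without shNT replicate 1 and 4.95 without shNT replicate 2, with adjusted p of 0.00122 and 3.77e-04, and 3.10 to 4.95 over all 10 alternatives. Rbm24 passed the filter only through the shNr4a3 libraries, so it had to differ to be tested. It lies at chr13:46418434-46431095 on the plus strand with no annotated overlap. Even after the rise, at 0.715 ± 0.0493 CPM per kilobase, it was the lowest of the 10 regulators per length.

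Markers of other cell types moved in the same libraries as these muscle regulators. Of 14 cardiomyocyte markers tested, 9 were higher and 2 lower, where 30.7% and 29.4% of all genes tested were. Their summed level was 13419 to 15652 CPM in shNT and 7859 to 8842 CPM in shNr4a3, most of it from Tnnt2, which was lower. Of the 6 mural and smooth muscle markers tested, 5 were higher and 1 was lower, and the summed level went from 831 to 869 CPM in shNT to 2508 to 2667 in shNr4a3. Of 4 skeletal muscle markers tested, 2, the myosin genes Myh1 and Myh2, were higher (198 to 214 CPM against 470 to 475 for the sum of the list). Near-identical myosin genes can exchange reads, and whether they did so here was not tested. Myog had 0 to 12 counts and Pax7 0 to 2. The part of these cells in the rises of Rbm20 and Rbm24 was not tested.

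Mbnl1 and Celf1 are classed together because their proteins oppose each other during heart maturation, MBNL1 favouring adult and CELF1 fetal splicing. Mbnl1 had 133 and 140 CPM in shNT and 130.0 and 130.5 CPM in shNr4a3. The log2 fold change was -0.07 (95% interval -0.24 to 0.11, edgeR adjusted p = 0.474). The libraries of the groups did not overlap, yet the gap of 6.23 CPM between the means was close to the 5.19 CPM SD of the controls. Celf1 had 112 and 116 CPM in shNT and 108 and 122 CPM in shNr4a3, with the control libraries inside the knockdown range. Its log2 fold change was 0.01 (95% interval -0.19 to 0.21, edgeR adjusted p = 0.911). For both genes the interval leaves out a change of the size seen for Ptbp1.

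Qk encodes quaking, an RNA-binding protein with roles in myelin, vessels and heart muscle. It had 230.4 and 232 CPM in shNT and 232 and 269 CPM in shNr4a3, and the lower knockdown library lay between the controls. The log2 fold change was 0.11 (95% interval -0.09 to 0.31, edgeR adjusted p = 0.299). The library with 269 CPM is shNr4a3 replicate 2, and it decides the value: the log2 fold change was 0.22 and passed without shNr4a3 replicate 1 (edgeR adjusted p = 0.0186), and -0.0093 without shNr4a3 replicate 2 (adjusted p = 0.922). Rbfox2, which acts in heart development and in the epithelial-mesenchymal transition, had 237 and 239.7 CPM in shNT and 241 and 266 CPM in shNr4a3. Its log2 fold change was 0.09 (95% interval -0.09 to 0.27, edgeR adjusted p = 0.361), and its groups did not overlap by a margin of only 1 to 2 CPM.

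Srsf1, a founding member of the SR proteins that bind exons and favour their inclusion, was lower. It had 157 and 151 CPM in shNT and 126 and 108 CPM in shNr4a3, again without overlap. The mean fell from 154 ± 3.96 to 117 ± 12.4 CPM (SD, n = 2 each), and the log2 fold change was -0.39 (95% interval -0.60 to -0.19, SE 0.0911, edgeR adjusted p = 0.00469). This is the smallest change among the 6 that passed. A non-coding gene on the opposite strand, not analysed here, overlaps 1.72% of its exon bases at chr11:88047373-88053755. In mice SRSF1 is needed for the splicing of Camk2d in the maturing heart. The Camk2d transcript as a whole had 120 and 131 CPM in shNT and 141 and 142 CPM in shNr4a3 and did not pass (log2 fold change 0.18, edgeR adjusted p = 0.0873).

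**Figure D3:**
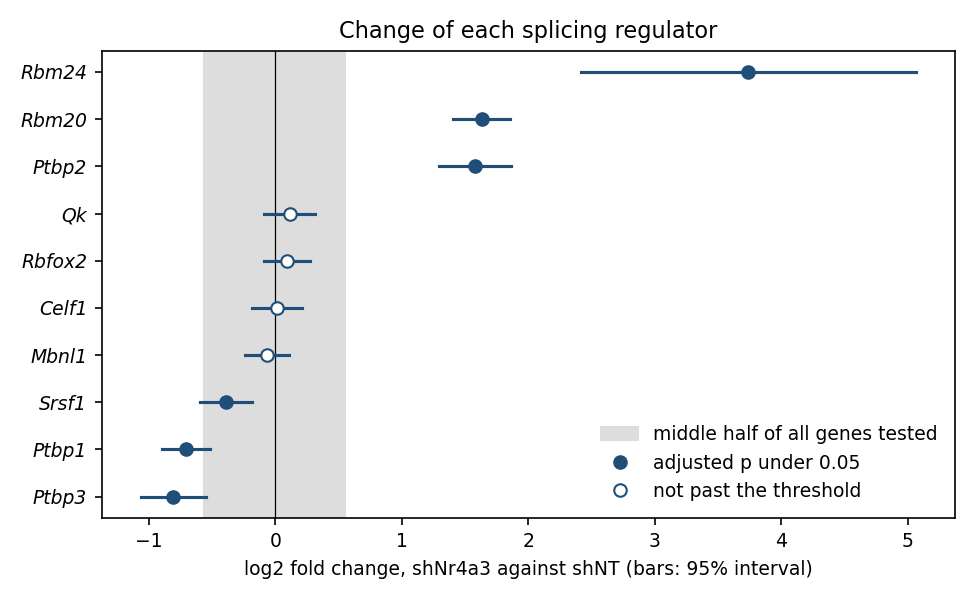
Log2 fold change of each regulator, shNr4a3 against shNT, with its 95% interval from edgeR; filled points passed an adjusted p of 0.05 and the grey band spans the 25th to 75th percentile of all genes tested (-0.57 to 0.55). Rbm24, Rbm20 and Ptbp2 lie to the right of the band and Ptbp1 and Ptbp3 to its left, while Srsf1 and the 4 genes that did not pass lie inside it.

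Ranked by per-length level, the 10 regulators kept Rbfox2 at the top (32.4 ± 0.235 CPM per kilobase in shNT and 34.5 ± 2.40 in shNr4a3, SD, n = 2 each) and Rbm24 at the bottom. In shNT the order was Rbfox2, Srsf1, Qk, Ptbp1, Celf1, Mbnl1, Ptbp3, Rbm20, Ptbp2 and Rbm24. Under shNr4a3 it was Rbfox2, Qk, Srsf1, Celf1, Ptbp1, Rbm20, Mbnl1, Ptbp2, Ptbp3 and Rbm24. Rbm20 moved from rank 8 to rank 6, at 9.38 ± 0.347 CPM per kilobase, and passed Mbnl1 and Ptbp3. Within each group no neighbours in the order overlapped between libraries, though with 2 libraries each this is a weak statement. The length of Mbnl1 in the table, 18717 bases, is over its longest coding transcript of 5655 bases, so its per-length level is lower than the coding transcript alone would give. For Rbm20 these lengths are closer, 6790 and 4892 bases. The passing of Mbnl1 by Rbm20 therefore depends on the length used.

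The transcripts that these regulators are known to splice were examined as whole genes. Of 13 genes tested whose transcripts are spliced by RBM20 in heart, 9 were higher and 2 lower, with a median log2 fold change of 0.61. Over all genes tested 30.7% were higher and 29.4% lower, with a median of 0.02, and the difference of the list from them was not tested. Ttn and Ryr2 of this list are also cardiomyocyte markers. Trdn, which encodes the sarcoplasmic reticulum protein triadin, went from 10.8 and 8.80 CPM to 145 and 138 CPM (log2 fold change 3.85, edgeR adjusted p = 3.85e-08). Nexn, a gene for an actin-binding protein of the Z-disc, went from 1019 and 955 CPM to 2524 and 2401 CPM (log2 fold change 1.32). The genes that fell were Camk2g, from 85.4 and 89.4 CPM to 27.0 and 22.7 CPM (log2 fold change -1.82), and Lmo7, by 0.52 on the log2 scale. Titin itself (Ttn), the best-known RBM20 target, had 168 and 162 CPM in shNT and, with a wide spread, 244 and 359 CPM in shNr4a3 (log2 fold change 0.87, edgeR adjusted p = 9.00e-04). RBM20 sets which titin exons are kept, and whole-gene counts also rise with longer isoforms, so level and isoform cannot be told apart for Ttn.

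Of 8 genes tested with exons regulated by PTB proteins, 5 were higher and 2 lower, against 30.7% and 29.4% of all genes tested, a difference that was not tested. One of the 5 is Ptbp2 itself, described above. The actin crosslinker gene Actn1 went from 864 and 944 CPM to 1706 and 1929 CPM (log2 fold change 1.01, edgeR adjusted p = 1.18e-05). Dlg4, the postsynaptic scaffold whose transcript is degraded when PTB proteins cause an exon to be skipped, went from 57.7 and 62.6 CPM to 114 and 119 CPM (log2 fold change 0.95, edgeR adjusted p = 1.32e-05). Tpm2 and Cald1, the genes of beta-tropomyosin and of caldesmon, fell by 0.82 and 0.54 on the log2 scale, Cald1 from 16920 and 17312 CPM to 11372 and 12170 CPM. Dlg4 was named after its value was seen. Whether exon inclusion changed was not tested.

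Cofactors that bind PTB proteins or the same pyrimidine-rich RNA went both ways. Raver2, a PTBP1 corepressor, had 2.66 and 2.62 CPM in shNT and 1.09 and 1.47 in shNr4a3 (log2 fold change -1.04, edgeR adjusted p = 0.0288). Fubp3 went from 118 and 119 CPM to 66.2 and 59.0 CPM (log2 fold change -0.92). Fubp1 and the nuclear matrix protein gene Matr3 rose by 0.43 and 0.22 on the log2 scale, and Khsrp had a log2 fold change of 0.04 (edgeR adjusted p = 0.739).

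Among 20 other factors of regulated splicing that were tested, 8 were higher and 6 lower, with a median log2 fold change of 0.18. This is 70% called, against 60.2% of all genes tested, of which 30.7% were higher and 29.4% lower. The median of all genes tested was 0.02, and the difference was not tested. Srrm4, a neuronal activator of microexons, rose from 1.89 and 1.83 CPM to 8.15 and 11.3 CPM (log2 fold change 2.38, edgeR adjusted p = 3.02e-05). Rbm38, the paralogue of Rbm24, rose from 4.03 and 2.81 CPM to 9.08 and 8.86 CPM (log2 fold change 1.39, edgeR adjusted p = 5.12e-04). Lowest were Celf4 and Celf3, relatives of Celf1 with mainly neuronal expression, at log2 fold changes of -1.27 and -1.26. Mbnl2, the relative of Mbnl1, fell from 310 and 326 CPM to 220 and 263 CPM, by 0.40 on the log2 scale. Neuronal regulators thus went in both directions, and the neuronal genes Elavl2, Elavl4 and Rbfox3 had at most 8 counts in any library and were not tested.

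In the broad families most log2 fold changes were small. Of the 9 other SR protein genes tested, 2 were higher, 3 were lower and 4 did not pass, with log2 fold changes from -0.49 for Srsf2 to 0.67 for Srsf9. Srsf11 fell by 0.47 and Srsf4 rose by 0.25 on the log2 scale. Of 18 hnRNP genes, 7 were higher, 2 lower and 9 did not pass. Hnrnph3 was the exception in size, from 65.8 and 57.3 CPM to 150 and 126 CPM (log2 fold change 1.17, edgeR adjusted p = 1.73e-05). Hnrnpul2 rose by 0.47, and Hnrnpd and Hnrnpc fell by 0.32 and 0.26 on the log2 scale. The shares called, 55.6% of SR genes and 50% of hnRNP genes, were below the 60.2% of all genes tested, and this difference was not tested.

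**Figure D4:**
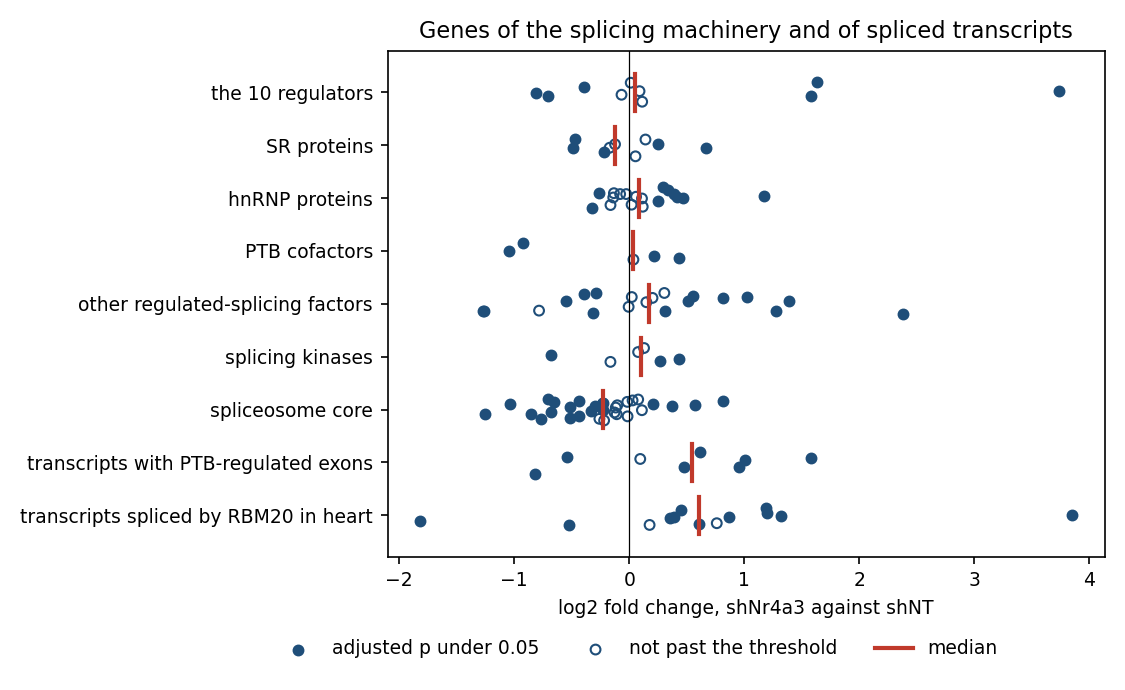
Log2 fold change of every tested gene in the 10 regulators and in lists of splicing genes and of known target transcripts, shNr4a3 against shNT; filled points passed an adjusted p of 0.05, red lines are list medians and vertical scatter only separates points. SR and hnRNP genes gather near 0, while the transcripts spliced by RBM20 and those with PTB-regulated exons have medians of 0.61 and 0.54. The median of all genes tested was 0.02, and the differences of the lists from it were not tested. The list with PTB-regulated exons includes Ptbp2, itself among the 10 regulators.

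Genes with the most similar profile were found by the distance between centred log2 CPM values over the 4 libraries, a measure that with 2 groups follows mainly the fold change. For Ptbp1 they included Mrps18b and Atxn7l3b (distances 0.0200 and 0.0274). For Ptbp3 they were Hip1r, Spag17 and Zranb3 (0.0214 to 0.0421), and for Rbm24 Gm13283, Rph3a and Atp13a5 (0.116 to 0.283), which averaged 0.199 to 0.317 CPM in shNT.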

How the data were processed

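RNA-seq was carried out on 4 libraries, 2 with shNT and 2 with shNr4a3. Per the labels' protocols, ribosomal RNA was depleted, libraries were stranded and sequencing was paired-end. The submitters' processing notes name Trimmomatic 0.36, SAMtools and featureCounts of Subread 1.5.1 on mm10. The molecule label says polyA RNA instead. Neither the strand setting nor the aligner or annotation release is stated in the sources used here. The deposited values are raw counts per gene, to which the authors applied no normalization. The table covers part of the genome, so CPM is relative to its genes. Its position cells end at 255 characters, so coordinates come from GENCODE M21. The table's gene length (another deposited column, in bases) equals the GENCODE exon length for 7 of the 10 regulators.

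Counts were tested with edgeR 4.0.16 in R 4.3.3 (TMM, filterByExpr, quasi-likelihood F test, hairpin as the only term, Benjamini-Hochberg over all genes tested, threshold 0.05), after the same code was tested on simulated data. SE is the log2 fold change divided by the square root of F, and intervals use its t distribution. Alternatives used DESeq2 1.42.0, limma-voom 3.58.1, other scaling, no filter, a replicate block and each library left out. Replicates differed by more than counting noise (chi-square per degree of freedom 10.6 in shNT and 22.1 in shNr4a3). The regulators and the 14 gene lists were chosen with earlier results of these data known. Named genes are all 10 regulators and, per list that is not of markers, the 2 largest changes called in each direction, every gene of a list with 6 or fewer tested, and the 3 nearest profiles of Ptbp1 and of the called regulators with the highest and the lowest (most negative) log2 fold change. Ttn, Camk2d, Dlg4, Mbnl2, Plppr3, Pdgfra, Tcf21, Postn and Lum were named after their values were seen. One gene that the rule names is not reported here.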

Additional observations from a re-analysis of the deposited data

How the results depend on the processing

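Of the 10 regulators, the 6 that passed kept their direction and passed in all 10 alternatives each. The highest adjusted p among them was 0.0372, for Srsf1, whose log2 fold change ranged from -0.50 to -0.30. Ptbp1 ranged from -0.75 to -0.68, Ptbp2 from 1.42 to 1.72, Ptbp3 from -0.90 to -0.73 and Rbm20 from 1.57 to 1.67. Celf1, which did not pass in any, turned to -0.0011 with RLE size factors and with DESeq2, to -0.0093 with column totals only, and ranged from -0.091 (without shNr4a3 replicate 2) to 0.10 with each library left out. Qk ranged from -0.0093 to 0.22 with each library left out. The cause was not tested. The count of regulators called higher was 3 or 4 and lower 3. With each library left out, genes called higher numbered 2680 to 3263 and lower 2565 to 3180. With raw counts not divided by length, the mean Ptbp1 share of the family was 63.6% in shNT and 44.2% in shNr4a3, since Ptbp1 has the shortest gene model. With the longest coding transcript it was 74.9% and 52.0%. With a replicate block, 3404 genes were higher and 3255 lower, and no call of a regulator changed. The deviations of same-numbered libraries correlated at 0.023 across genes. With 2 libraries per hairpin this cannot show whether same-numbered libraries share an animal, a culture or a batch. The depth limits Rbm24 most, with 10 counts over both shNT libraries. Rbm24 also passed the filter only through the shNr4a3 libraries, so its calls are not independent of that filter.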

Other observations

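Of 31 core spliceosome genes tested, 15 were lower, 4 higher and 12 did not pass (61.3% called, against 60.2% of all genes tested, of which 30.7% were higher and 29.4% lower). The median log2 fold change was -0.23 for these genes and 0.02 for all genes tested, and the difference was not tested. Cdc5l, a component of the active spliceosome that is also known as a cell cycle regulator, went from 207 and 200.4 CPM in shNT to 86.0 and 84.6 CPM in shNr4a3 (log2 fold change -1.26, edgeR adjusted p = 1.28e-06). Sf3a3, a subunit of the U2 particle, went from 219 and 208 CPM to 112 and 96.5 CPM (log2 fold change -1.03). Snrpc, a protein of the U1 particle, rose from 34.6 and 34.9 CPM to 64.0 and 58.1 CPM (log2 fold change 0.81), and Prpf19 rose by 0.57 on the log2 scale.

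Of 6 kinases of splicing factors tested, 2 were higher, 1 was lower and 3 did not pass, so 50% were called against 60.2% of all genes tested. Srpk1 fell from 109 and 111 CPM to 68.4 and 68.8 CPM (log2 fold change -0.68, edgeR adjusted p = 7.12e-05), whereas Srpk2 rose from 243 and 253 CPM to 323 and 345 CPM (log2 fold change 0.43, edgeR adjusted p = 0.00102). Clk2 rose by 0.27 on the log2 scale. Clk1, Clk4 and Dyrk1a had log2 fold changes of 0.08, 0.13 and -0.16 and did not pass (edgeR adjusted p of 0.42, 0.19 and 0.156).

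Macrophage markers (6 of 13 lower, none higher, 183 to 235 CPM summed in shNT and 159 to 164 in shNr4a3), endothelial markers (4 of 10 lower and 2 higher, 328 to 362 CPM and 231 to 240) and cardiac fibroblast markers (7 of 12 lower and 2 higher, 11606 to 11640 CPM and 12205 to 13014) were counted in the same way. The shares called were 46.2%, 60% and 75%, against 60.2% of all genes tested. The fibroblast sum is carried upward by Postn, the gene of the matrix protein periostin, which went from 388 and 470.2 CPM in shNT to 5019 and 4863 CPM in shNr4a3. The part of these cells in the results for the splicing regulators was not tested.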
